A study of Mus musculus with 2 samples.

Results

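The Usp genes encode ubiquitin-specific proteases, the largest family of deubiquitinases. The genes described here are the rows of the deposited table whose symbol is Usp followed by a number, without Usp7, Usp9y and the Usp17-like genes. The rule found 49 of 23418 rows, and the 38 of these whose counts averaged 20 or more across the pair of libraries were compared. Usp6nl met the rule by its name, but its product is a GTPase-activating protein of Rab proteins and not a protease. RNA came from C57BL/6 mouse embryos at the 4/8-cell stage. A pool of 20 embryos that had received siRNA against Dnmt1 (siDnmt1) gave 1 library, and a pool of 20 that had received scrambled siRNA gave the other. With 1 library per group there is no replicate check and no p-value, and every difference concerns these 2 libraries only.

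Ubiquitin is a small protein that is attached to other proteins as a single unit or as a chain, and it marks them for degradation by the proteasome, for sorting in endosomes or for other fates. Deubiquitinases cut it off again, and those of the Usp family do so with a catalytic cysteine. In the early embryo, proteins inherited from the oocyte are cleared through ubiquitin while the zygotic genome is switched on, and histone ubiquitin is part of the control of chromatin.

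The siDnmt1 and scrambled libraries held 12236615 and 11675483 counts. Rn45s, the ribosomal RNA precursor, took 37.3% and 29.9% of them. Dnmt1 itself stood at 687 counts in siDnmt1 and at 847 in scrambled (1.23-fold lower, 95% counting interval 1.11 to 1.37). Its log2 ratio, on the scale defined below, was -0.30 and lay between the quartiles of all genes, -0.67 and 0.57. Of the 7315 genes compared, 37.0% had a counting interval below equality. Of 10 markers of cleavage embryos and stored oocyte RNA, 5 averaged 20 or more counts, and the summed level of all 10 was 1773 counts against 2545, most of it from Pou5f1 (1489 against 2152). Zar1 was at 0 in both libraries. The 11 cumulus and granulosa markers summed to 8 counts against 0 with 9 of them at 0 in both, the 5 sperm markers were all at 0, and the 5 blood markers summed to 17 against 8.

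Transcripts of the Usp family were more abundant in the siDnmt1 library. The 49 genes together had 32244 counts there and 24658 in the scrambled library, a ratio of 1.31. Outside Rn45s they made up 0.420% and 0.301% of the counts. The 3 genes with most counts, Usp48, Usp10 and Usp33, held 43.9% of the Usp counts in siDnmt1 and 36.3% in scrambled, and without them the ratio of the sums was 1.15. In a pooled library, more transcript per cell and more cells that carry the transcript cannot be told apart.

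Each gene was compared by its log2 ratio, log2((siDnmt1 + 5)/(scrambled + 5)), where 5 is a pseudocount that damps the ratios of genes with few counts. Of the 38 Usp genes, 8 were at least 2-fold higher on this scale (21.1%), where 12.5% of all 7315 genes compared were. The higher genes were Usp11, Usp40, Usp20, Usp21, Usp38, Usp12, Usp3 and Usp48. Of these, Usp40, Usp20, Usp21 and Usp3 had fewer than 20 counts in scrambled and reached the minimum mean only through siDnmt1. Usp8 was the only one of the 38 that was at least 2-fold lower (2.63%), against 16.7% of all genes. The median log2 ratio of the Usp genes was 0.23, with quartiles of -0.15 and 0.93. That of all genes was -0.02, with quartiles of -0.67 and 0.57. A log2 ratio above 0 was found for 26 of the 38 (68.4%) and for 48.7% of all genes.

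Genes are called at least 2-fold or 4-fold higher or lower, or within 2-fold, on the log2 scale with the pseudocount. Other folds below are plain ratios of counts, with an exact 95% interval that covers counting error only. This interval lay wholly above equality for 22 Usp genes (57.9%, against 35.4% of all genes) and wholly below it for 7 (18.4%, against 37.0%), and it included equality for 9. The interval takes each count as independent, which PCR copies are not, so it may be too narrow. By this interval most of the 7315 genes compared differed, which makes it a weak criterion here.

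**Figure D1:**
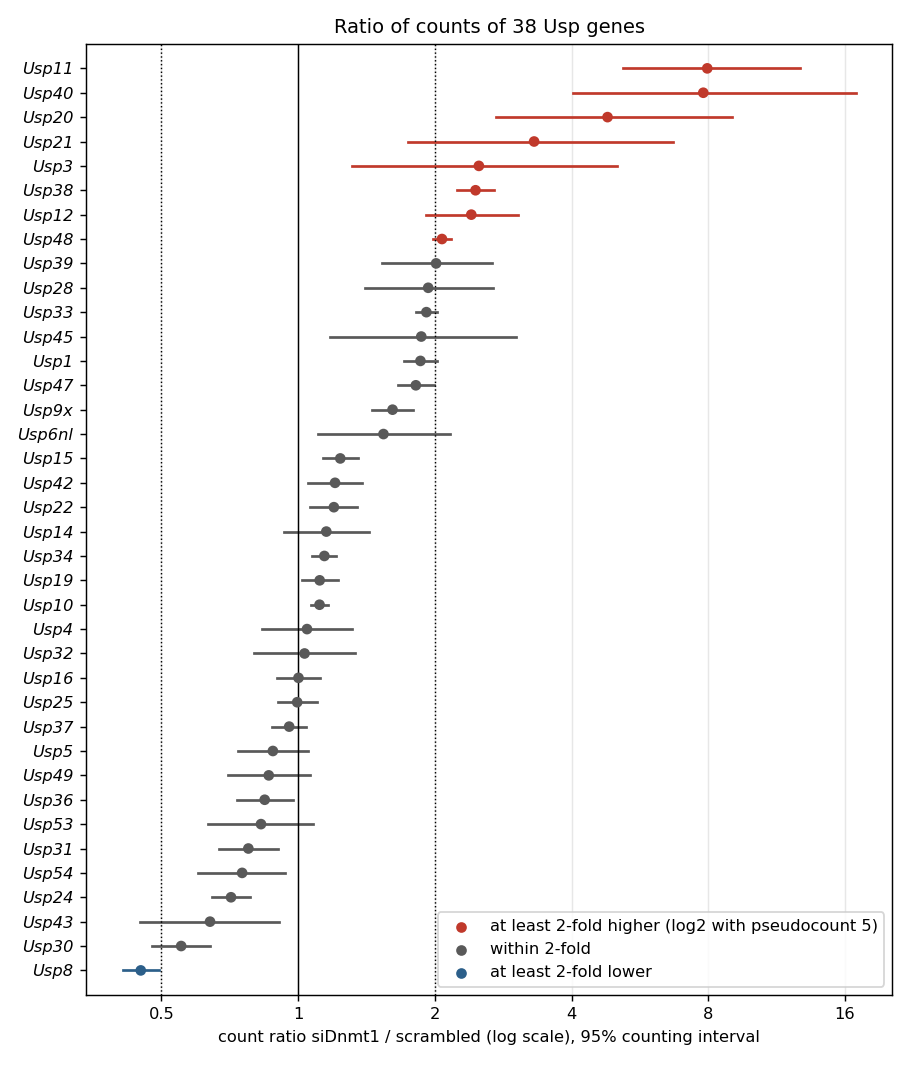
Ratio of counts in siDnmt1 to counts in scrambled for the 38 Usp genes compared, on a log scale, with points for the ratio and bars for the 95% counting interval. Red genes were at least 2-fold higher and the blue gene at least 2-fold lower on the scale with a pseudocount of 5, and dotted lines mark 2-fold. Usp11 and Usp40 lie near 8 and Usp8 lies at 0.450.

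The share of higher genes was largest among the members with few counts. Of the 8 members with a mean of 20 to under 100 counts, 4 were at least 2-fold higher, where 16.7% of all genes in that range were. These were Usp40, Usp20, Usp21 and Usp3, with 10, 15, 13 and 14 counts in scrambled. They met the minimum mean of 20 only through siDnmt1, the library where they were higher, so their share is a description only. The same filter was applied to all genes. Of the 30 members with a mean of at least 100 counts, 4 were higher (13.3%, against 9.33% of 4233 such genes) and 1 was lower (3.33%, against 11.4%). The 4 higher members at this level were Usp11, Usp12, Usp38 and Usp48. At a threshold of 4-fold on the log2 scale, only Usp11 and Usp40 remained of the 8 higher genes, and 2.64% of all genes were 4-fold higher. Usp20, with a plain ratio of 4.80, had a log2 ratio of 1.94 and fell short.

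Usp11 differed most. It is an X-linked relative of Usp4 and Usp15 and is known for a role in repair of DNA breaks by homologous recombination. It had 191 counts in siDnmt1 and 24 in scrambled, 7.96-fold higher (5.19 to 12.7), and its log2 ratio of 2.76 was matched or exceeded by few genes (99.1% lay at or below it). Usp40, a less studied member, had 78 counts against 10, 7.80-fold higher (4.02 to 16.9). Its level in the scrambled library thus rested on 10 counts.

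The promoters of the 2 highest genes, of the most abundant higher gene and of the lower gene are shown here because CG dinucleotides are the sites that Dnmt1 methylates. The sequences are RefSeq's, run from 250 bases before to 50 bases after an annotated start, and are printed on the gene's strand with each CG in capitals. CG reads the same on both strands. The data contain no methylation measurement at these sites, and the annotated start may not be the one used in embryos.
Usp11 promoter (GRCm38.p6, chrX:20703659-20703958, plus strand): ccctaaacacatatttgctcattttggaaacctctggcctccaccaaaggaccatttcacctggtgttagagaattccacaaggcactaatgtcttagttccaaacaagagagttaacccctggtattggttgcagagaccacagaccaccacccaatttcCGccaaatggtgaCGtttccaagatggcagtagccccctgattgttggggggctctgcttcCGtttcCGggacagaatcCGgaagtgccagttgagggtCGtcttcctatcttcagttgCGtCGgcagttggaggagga
Usp40 promoter (GRCm38.p6, chr1:88008502-88008801, minus strand): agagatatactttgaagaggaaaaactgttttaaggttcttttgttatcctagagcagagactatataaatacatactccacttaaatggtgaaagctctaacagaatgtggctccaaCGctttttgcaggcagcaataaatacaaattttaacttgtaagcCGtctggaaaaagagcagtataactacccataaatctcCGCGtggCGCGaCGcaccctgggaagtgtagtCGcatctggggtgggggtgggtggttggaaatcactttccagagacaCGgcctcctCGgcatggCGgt
Usp48 promoter (GRCm38.p6, chr4:137593922-137594221, plus strand): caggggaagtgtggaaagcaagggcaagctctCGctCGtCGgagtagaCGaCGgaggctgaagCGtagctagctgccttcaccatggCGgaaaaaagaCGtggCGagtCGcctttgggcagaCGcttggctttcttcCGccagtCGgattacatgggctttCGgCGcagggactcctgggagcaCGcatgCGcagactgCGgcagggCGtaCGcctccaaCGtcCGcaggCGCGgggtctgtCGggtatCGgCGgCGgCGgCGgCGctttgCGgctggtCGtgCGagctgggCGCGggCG
Usp8 promoter (GRCm38.p6, chr2:126707078-126707377, plus strand): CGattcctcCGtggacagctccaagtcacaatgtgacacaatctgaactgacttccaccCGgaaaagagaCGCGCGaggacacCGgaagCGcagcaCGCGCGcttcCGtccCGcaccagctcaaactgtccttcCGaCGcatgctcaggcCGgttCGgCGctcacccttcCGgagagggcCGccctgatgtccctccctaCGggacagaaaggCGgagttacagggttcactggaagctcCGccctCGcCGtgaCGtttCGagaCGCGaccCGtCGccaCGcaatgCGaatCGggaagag
There were 8 CG sites in the promoter of Usp11 and 11 in that of Usp40. Of the other members compared, Usp10 with 8, Usp49 with 11 and Usp54 with 5 had as few and were within 2-fold. Usp48, 2.07-fold higher, had 37, and Usp8, the gene that was lower, had 34. A promoter was found for 37 of the 49 Usp genes. Over the 28 of these that were compared, the number of CG sites ranged from 5 to 54 with a median of 29.5, against 22 over 5552 compared genes and 7 over all 27025 promoters of this length. At least 1 CG was present in 94.2% of all promoters and in every Usp promoter found. Spearman's rho between the number of CG sites and the log2 ratio was -0.06 over the 28 genes, which share the same pair of libraries.

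Among the members linked to DNA repair and the cell cycle, 6 of the 8 compared had a log2 ratio above 0, against 48.7% of all genes. Their median was 0.87. The lists by role were chosen with earlier results of these data known, so such shares and medians are descriptions only. Usp1, which with its cofactor Wdr48 removes ubiquitin from Fancd2 and PCNA, had 1554 counts against 836, 1.86-fold higher (1.71 to 2.02). Usp47, linked to base excision repair through DNA polymerase beta, had 1293 against 712, 1.82-fold higher (1.66 to 1.99). Both had narrow intervals and stayed just inside 2-fold. Usp28, which binds 53BP1 and stabilises Myc, had 116 against 60, 1.93-fold higher (1.40 to 2.69). Usp3, an H2A deubiquitinase, had 35 against 14, 2.50-fold higher (1.31 to 5.03), and its log2 ratio of 1.07 was just past the threshold. Usp10, a cytoplasmic enzyme that binds G3bp1 and acts on p53, was the most abundant member per length and nearly level, at 4667 counts against 4188 (ratio 1.11, 1.07 to 1.16). Usp37, which acts on cyclin A, had 1050 against 1099, and its interval of 0.877 to 1.04 included equality. Usp24 was on the other side, with 732 against 1029, 1.41-fold lower (1.28 to 1.55). Usp44, a regulator of the spindle checkpoint, had 0 counts in both libraries.

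Of the 6 compared genes listed as histone deubiquitinases, a list that does not hold Usp3, 5 were within 2-fold. Usp21, which removes ubiquitin from histone H2A, had 43 counts against 13, 3.31-fold higher (1.75 to 6.70). Usp16, an H2A deubiquitinase of the cell cycle, was at the same level in both libraries, with 673 counts and 672. Usp22, the protease of the SAGA coactivator, had 616 against 514, a ratio of 1.20 (1.06 to 1.35). Its relatives were barely detected: Usp27x had 0 counts against 3 and Usp51 had 1 against 0. Usp36, of the nucleolus, had 362 against 429, and its relative Usp42 had 481 against 399. These ratios of 0.844 and 1.21 had intervals on opposite sides of equality. Usp49, an H2B deubiquitinase, had 174 against 202, with an interval of 0.699 to 1.06. The median log2 ratio of the 6 was 0.13, and the 1 higher gene among 6 is close to the 12.5% of all genes.

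The members of endosomes and receptor traffic included both the gene that was lower and genes that were higher. Usp8, which acts on cargo receptors at endosomes together with Stam and Hgs, had 677 counts in siDnmt1 and 1504 in scrambled, 2.22-fold lower (2.03 to 2.44). It was the fourth most abundant Usp gene per length in the scrambled library, at 362 counts per kb, and at 163 in siDnmt1. In the other direction, Usp20 had 72 against 15, 4.80-fold higher (2.73 to 9.02). Its relative Usp33, which shares with it a role in recycling of a beta-adrenergic receptor, had 4295 against 2242, 1.92-fold higher (1.82 to 2.02). Usp33 was far more abundant than Usp20, at 1027 against 14.2 counts per kb in siDnmt1. Usp12, which works with Wdr48 and Wdr20, had 255 against 106, 2.41-fold higher (1.91 to 3.05). Its close relative Usp46 had 13 counts against 0, at least 4.33-fold higher against a floor of 3 counts for the scrambled library. That value takes no account of counting error in the 13, and the exact interval began at 3.05-fold. Usp32 was level, with 126 against 122. Usp2 was below the minimum for comparison, with 3 counts against 23 (ratio 0.130, 0.0251 to 0.432).

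**Figure D2:**
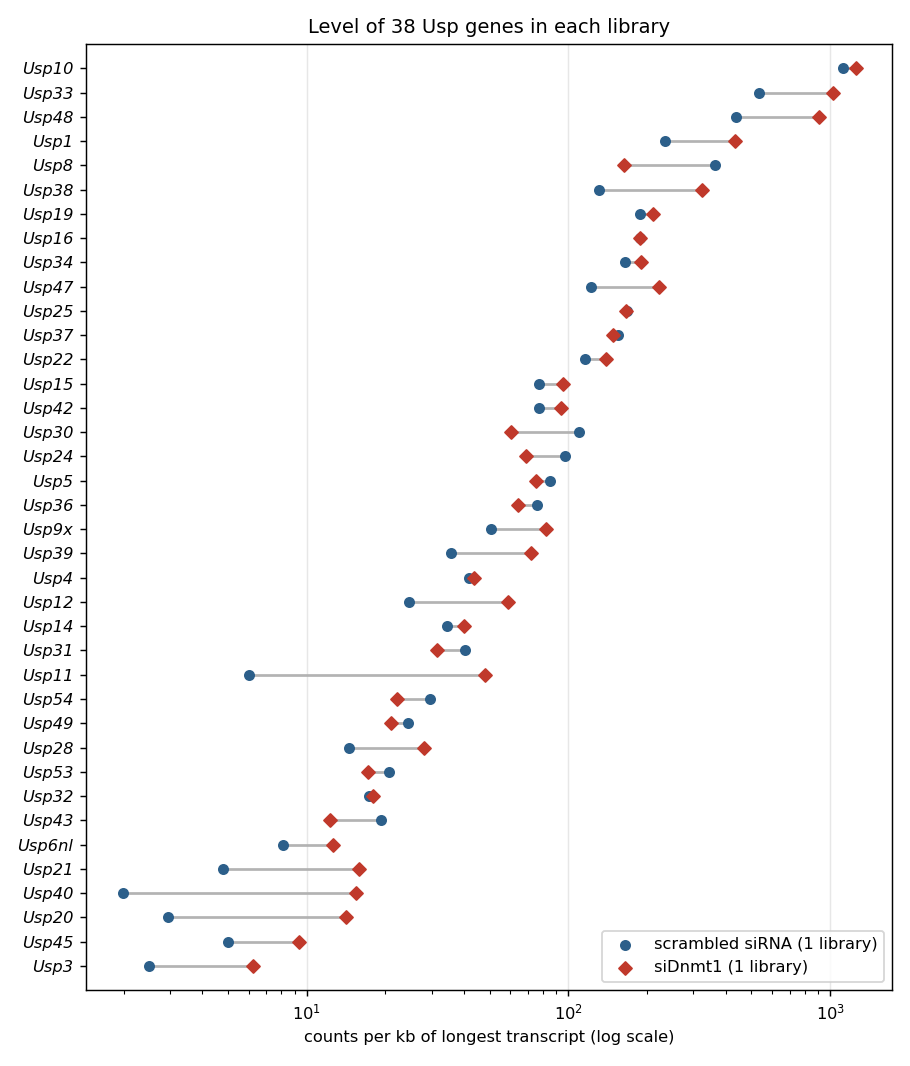
Counts per kb of the longest annotated transcript for the 38 Usp genes compared, on a log axis, with 1 diamond for the siDnmt1 library and 1 circle for the scrambled library. Genes are ordered by their mean level, from Usp3 at the bottom to Usp10 at the top. The longest grey lines belong to Usp11, Usp40 and Usp20, in the lower part of the range.

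Levels per length spanned more than the differences between libraries. From the longest GENCODE transcript, mean levels ran from 4.37 counts per kb for Usp3 to 1188 for Usp10, with Usp33 at 781, Usp48 at 672 and Usp1 at 334. The neighbours Usp33 and Usp48 kept their order in both libraries, at 1027 and 907 counts per kb in siDnmt1 and 536 and 437 in scrambled. Usp8 and Usp38 exchanged places, with 163 and 323 in siDnmt1 and 362 and 131 in scrambled. Spearman's rho between the levels of the 38 genes in the 2 libraries was 0.94, as a description over genes.

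The enzymes of free ubiquitin and the proteasome showed no difference beyond counting error. Usp14, which sits on the proteasome and trims its substrates, had 188 counts against 163, with an interval of 0.930 to 1.43. Usp5, which takes apart unanchored ubiquitin chains, had 241 against 274, with an interval of 0.737 to 1.05. Usp13, its relative, had 5 counts against 1.

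The organelle members differed from one another. Usp30, which is anchored in the outer mitochondrial membrane and opposes removal of mitochondria by Parkin, had 279 counts against 505, 1.81-fold lower (1.56 to 2.10). Usp19, which has a form anchored in the endoplasmic reticulum, had 1007 against 903, a ratio of 1.12 (1.02 to 1.22). Usp35 was at 0 in both libraries. Usp30 was the second lowest of the 38 genes after Usp8.

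Of the members tied to the spliceosome, Usp39 is a splicing factor that lacks protease activity. It had 161 counts against 80, 2.01-fold higher (1.53 to 2.67), and its log2 ratio of 0.97 lay just inside the threshold. Usp4, which is recruited to the spliceosome by Sart3, had 160 against 153 and was level within counting error. Usp15, its close relative, had 1103 against 891, a ratio of 1.24 (1.13 to 1.35). Beside Usp11, these 2 relatives differed little between the libraries.

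In the signalling group, Usp38 had 1519 counts against 618, 2.46-fold higher (2.24 to 2.70). Usp9x, a large X-linked enzyme needed for mouse development, had 973 against 603, 1.61-fold higher (1.46 to 1.79). Usp34, which acts on Axin in Wnt signalling, had 2300 against 2014, a ratio of 1.14 (1.08 to 1.21). Usp25 was level, with 793 against 797. Usp31 had 320 against 412, 1.29-fold lower (1.11 to 1.49). Usp18, which removes the ubiquitin-like protein ISG15 and is induced by interferon, had 0 counts in both libraries. A count of 0 allows up to 3 counts in a library of this depth.

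The less studied members had ratios in both directions. Usp48, the most abundant gene past the threshold, had 5206 counts against 2511, 2.07-fold higher (1.98 to 2.18). Usp45, which acts on the repair nuclease Ercc1, had 56 against 30, 1.87-fold higher (1.18 to 3.01). Usp43 had 55 against 86, 1.56-fold lower (1.10 to 2.24). Usp53 and Usp54 had 106 against 128 and 146 against 194. The interval of Usp53 included equality and that of Usp54 did not (1.33-fold lower, 1.07 to 1.66). Usp6nl, the gene that is no protease, had 94 against 61, 1.54-fold higher (1.10 to 2.16).

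The germline members were near the limit of detection. Usp29, a paternally expressed imprinted gene beside Peg3, had 15 counts against 16. The X-linked gene Usp26, known from testis, had 7 against 2, and Usp50 had 3 against 0. Across the family, 42 of the 49 genes had a count in both libraries and 3 (Usp18, Usp35 and Usp44) had none in either.

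Genes of similar sequence did not always have similar ratios. Of 14 sets of relatives, 8 had at least 2 members compared, and in 3 of them the members lay more than 1 log2 unit apart. The share of unrelated genes that lie as far apart was not computed, so relatives cannot be set against it. The quartiles of all genes were -0.67 and 0.57. The gap was 2.69 between Usp11 and Usp4, 1.17 between Usp9x and Usp24, and 1.01 between Usp20 and Usp33. The last of these depended on the pseudocount. With a pseudocount of 20, Usp20 stood at 1.39 and Usp33 at 0.93, less than 1 apart. Usp53 and Usp54 were 0.14 apart, and Usp31 and Usp43 were 0.24 apart. How reads with several matches were treated is not given in the sources used here, so counts of relatives are uncertain to that extent.

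**Figure D3:**
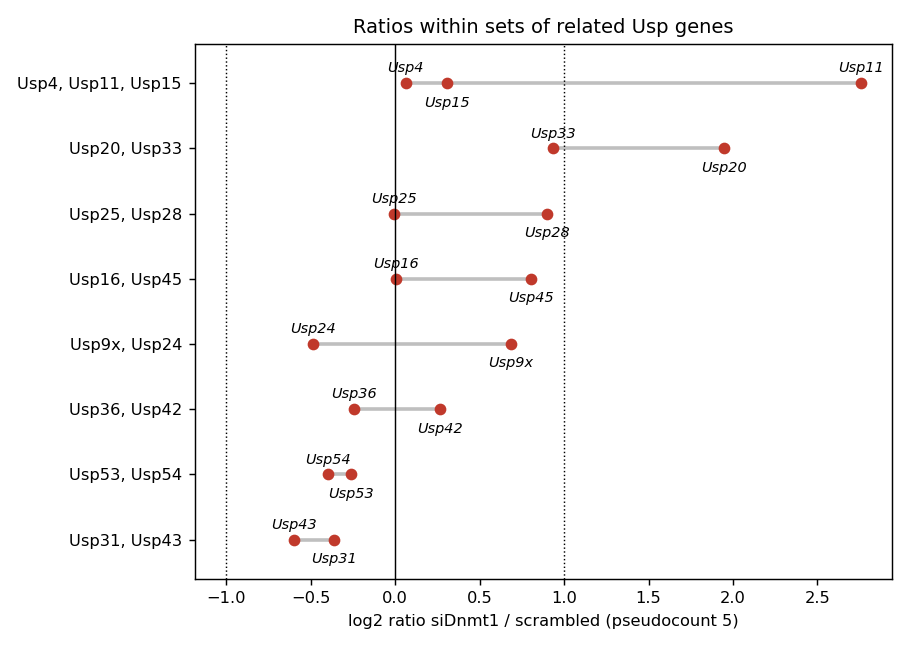
Log2 ratio of siDnmt1 to scrambled (pseudocount of 5) for Usp genes in the 8 sets of relatives with at least 2 members compared, with 1 point per gene and a grey line from the lowest to the highest member. Dotted lines mark 2-fold. The set of Usp4, Usp11 and Usp15 is the widest, at 2.69, and that of Usp53 and Usp54 the narrowest, at 0.14.

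Usp transcripts are long, and short transcripts had lower ratios in this pair of libraries. The longest annotated transcripts of the 38 genes ran from 2244 to 12200 nt, with a median of 4920 nt against 3787 nt for all genes. All genes were put into 5 length groups of about equal size. In group 1 (346 to 2330 nt) 32.1% of genes were at least 2-fold lower and 6.80% higher, and this group held 1 Usp gene, Usp39. In group 2 (2333 to 3296 nt) 17.3% were lower and 12.0% higher, and 1 of its 2 Usp genes was higher. Group 3 (3297 to 4309 nt) had 14.7% lower and 13.7% higher, and of its 8 Usp genes 1 was higher and 1 lower. In group 4 (4310 to 5773 nt) 6 of 14 Usp genes were higher, against 15.0% of all genes there, and 0 were lower, against 10.9%. In group 5, from 5779 nt, 8.19% were lower and 14.7% higher, and none of its 13 Usp genes was either. Most of the higher Usp genes were thus in group 4, and the longest members stayed within 2-fold. Within the family the trend with length did not have the same sign: Spearman's rho between length and log2 ratio was -0.23 over the 38 Usp genes and 0.24 over 7270 genes. With a smooth trend on length removed, the Usp median was 0.11 instead of 0.23, 7 genes were at least 2-fold higher and 1 lower, against 12.9% and 14.0% of all genes. Of the 8 higher genes, Usp3 (0.93) and Usp48 (0.91) then fell short of 2-fold, and Usp39 (1.16) passed it.

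**Figure D4:**
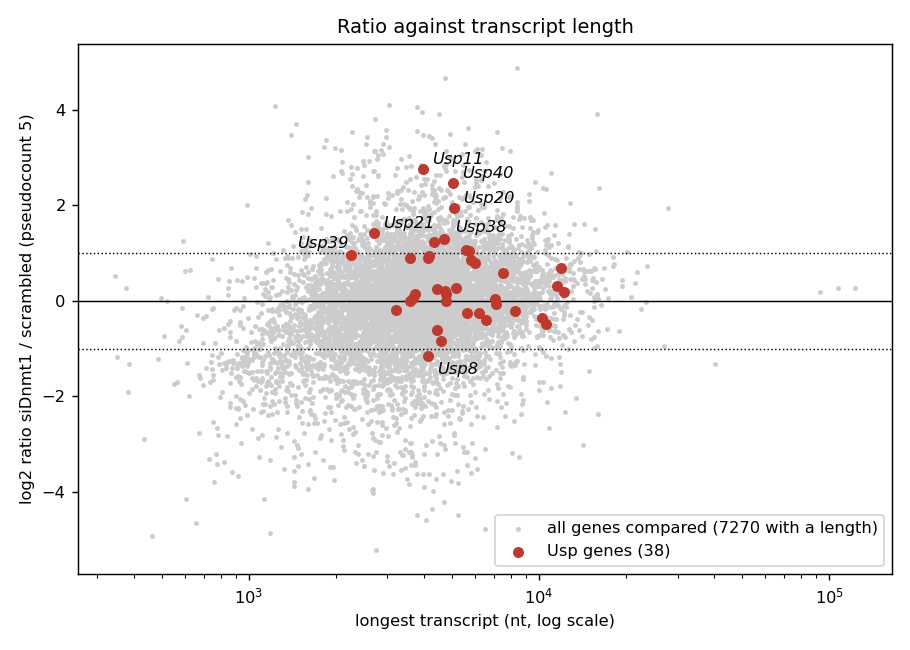
Log2 ratio of siDnmt1 to scrambled (pseudocount of 5) against the longest annotated transcript in nt on a log axis, with 7270 genes in grey and the 38 Usp genes in red. Dotted lines mark 2-fold. The Usp genes lie between 2244 and 12200 nt, to the right of the short genes with low ratios.

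Listed deubiquitinases not named Usp did not share the higher median. Most are of other classes, but the list also holds 3 genes placed there by a Usp-like fold, Cyld, Pan2 and Uspl1. Of these 3, Pan2 (log2 ratio 0.07) and Uspl1 (-0.26) were compared. Of all 39 listed genes in the table, 27 were compared. Of these 27, 5 were at least 2-fold higher (18.5%), against 12.5% of all genes and 21.1% of the Usp genes. Another 3 were lower (11.1%), against 16.7% of all genes and 2.63% of the Usp genes. The median log2 ratio was -0.19. The mean, at 0.10, had the other sign. With the length trend removed the median was -0.14. The highest was Stambp, an endosomal metalloprotease also known as AMSH, with 142 counts against 0, at least 47.3-fold higher against the floor of 3 counts. That value takes no account of counting error in the 142, and the exact interval began at 38.0-fold. Fam63a, which cuts long ubiquitin chains, followed at 845 against 332, 2.55-fold higher (2.24 to 2.90). The lowest were Uchl1, an abundant hydrolase of oocytes and neurons, at 37 against 108 (2.92-fold lower, 1.99 to 4.36), and Alg13, which carries an OTU protease domain, at 632 against 1482 (2.34-fold lower, 2.14 to 2.58). The difference between the 2 sets of genes was not tested, since there is 1 library per group.

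**Figure D5:**
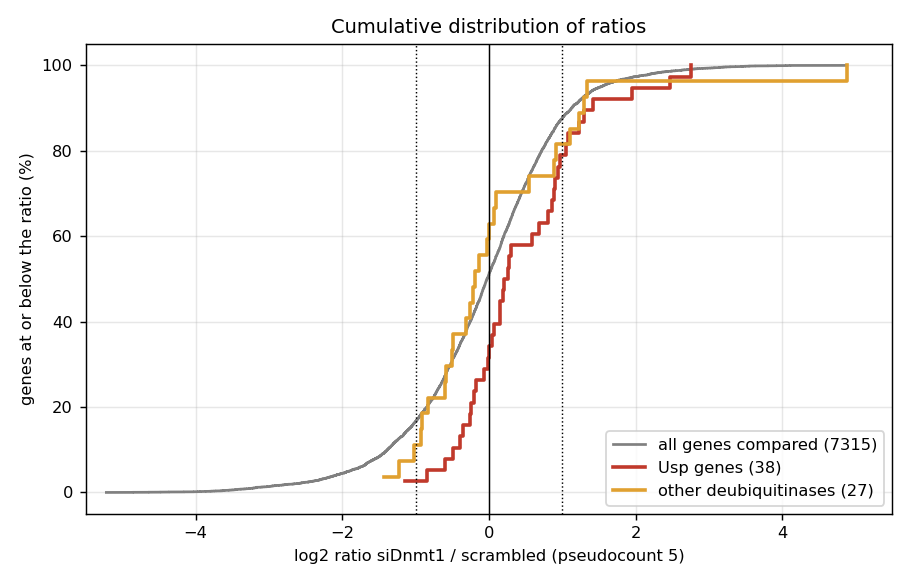
Percentage of genes at or below each log2 ratio (pseudocount of 5) for the 38 Usp genes, 27 listed deubiquitinases not named Usp and all 7315 genes compared. Dotted lines mark 2-fold. The Usp curve lies to the right of the others around 0, where its median is 0.23 against -0.19 and -0.02, and its lower tail ends at Usp8.

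Of 14 cofactors of the Usp enzymes in the table, 10 were compared, with a median log2 ratio of 0.39. Of these 8 were within 2-fold, a share close to the 70.9% of all genes, 1 was higher and 1 lower. Sart3, the partner of Usp4 and Usp15, had 1555 counts against 706, 2.20-fold higher (2.01 to 2.41). Wdr48, the activator of Usp1, Usp12 and Usp46, had 401 against 210, 1.91-fold higher (1.61 to 2.27). Eny2, of the module that holds Usp22, had 10 against 31, 3.10-fold lower (1.48 to 7.09). Hgs, a partner of Usp8, had 792 against 944, 1.19-fold lower (1.08 to 1.31).

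The SENP proteases, which remove the ubiquitin-like protein SUMO, had 6 genes compared, all within 2-fold as were 70.9% of all genes, with a median of -0.51. Senp2 (748 against 396) and Senp6 (1280 against 710) were the highest, and Senp7 (22 against 43) and Senp5 (243 against 365) the lowest.

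Some counts are uncertain because genes overlap. In GENCODE M21, 14 of the 38 Usp genes compared have an exon that overlaps an exon of a gene on the opposite strand, and whether reads were counted by strand is not given in the sources used here. Of the 8 higher genes, 2 are among them: Usp40 overlaps Dgkd, and Usp38 overlaps Gm9725. The other 6, Usp11 included, have no such overlap. Usp8 has none either. On the same strand, Usp10 overlaps Gm20388, Usp15 overlaps Gm27920 and Usp49 overlaps Gm20517.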

How the data were processed

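RNA captured on oligo-dT beads was amplified by pico-profiling (20 cycles of PCR) and sequenced from both ends, per the labels' protocols. The submitters' processing notes name Trim Galore, HISAT2, HTSeq, DESeq2 and mm9. The authors deposited whole-number counts per gene symbol in a table described as DESeq2-normalised. No whole number from 1 to 59 was missing in either column, as upward rescaling would leave. This check would not show downward rescaling. DESeq2 size factors computed from the deposited values were 1 for both libraries. The counts were used as deposited, with totals of 12236615 and 11675483. If they had been rescaled, the counting intervals would not be exact.

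No test could be fitted (0 residual degrees of freedom). Log2 ratios used a pseudocount of 5 and a minimum mean of 20 counts. Clopper-Pearson 95% intervals and the floor of 3 counts cover counting error only and take each count as independent. PCR copies are not independent molecules, so the intervals may be too narrow. Named are all Usp genes above the minimum and the 2 highest and 2 lowest genes of each comparison list. One list is not reported here. Members and lists were chosen with earlier results of these data known. Lengths (found for 99.4% of genes) and overlaps came from GENCODE M21 (GRCm38) and promoters from RefSeq (GRCm38.p6), matched by symbol and never by coordinate. Trends were removed by lowess (span 0.3). Alternatives were pseudocounts of 1 and 20, other filters and scalings, trends and a 4-fold threshold. Ratios and intervals were tested on simulated data. Python 3.11.15 (statsmodels 0.14.6 and scipy 1.17.1) and R 4.3.3 (DESeq2 1.42.0 and edgeR 4.0.16) were used.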

Additional observations from a re-analysis of the deposited data

How the results depend on the processing

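The median log2 ratio of the Usp genes stayed above 0 under all alternatives that were run for it. It ran from 0.11 with the length trend removed to 0.32 with totals made equal without Rn45s. The medians of all genes in these settings were 0.01 and 0.06, so part of the range is a shift shared by all genes. The number of Usp genes at least 2-fold higher was 8, beside 12.5% of all genes. It was 4 at a mean of at least 100 counts (9.33% of all such genes). At a threshold of 4-fold, where fewer genes can pass, it was 2 (2.64% of all genes). Under the other alternatives it lay between 6 and 11, and the share of all genes between 9.28% and 14.4%. The number at least 2-fold lower was 1, beside 16.7% of all genes. It was 2 without a filter on low counts (15.6% of all genes), where Usp2 joined Usp8, and 0 at 4-fold (4.51%). Usp11, Usp40, Usp20, Usp38 and Usp12 stayed at least 2-fold higher, and Usp8 at least 2-fold lower, under every alternative short of 4-fold that kept them. Some of these alternatives could not change the ratio of a gene. They were the changes of filter, the omission of Usp6nl, and the DESeq2 size factors, which were 1 for both libraries. Usp21 fell short with a pseudocount of 20, and Usp3 and Usp48 in 3 alternatives each. Usp39, Usp33 and Usp28 passed 2-fold in 5, 2 and 1 alternatives. Trends on median transcript length and on GC content were chosen after seeing the data. The median of the other deubiquitinases stayed below 0. Genes under about 100 counts are the least precise. No paired analysis was possible because each group has 1 library, and for the same reason no library could be left out.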
